A study of Mus musculus with 11 samples.

Results

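The genes described here are 45 interferon-induced and antigen presentation genes, a list of symbols matched to Ensembl identifiers among the 52550 gene identifiers of the count table. All 45 were found. After the filter on low counts (a median count of 10 or more, and in 3 or more libraries a level of 1 or more CPM, the count scaled to library size), 42 of the 45 and 15373 genes in all were kept. By role, 3 are transcription factors of the interferon response, 4 are sensors of foreign nucleic acid, 27 are effectors, 5 are interferon-induced GTPases and 6 belong to antigen presentation on class I major histocompatibility molecules. The 5 members in the major histocompatibility (H2) region of chromosome 17 (H2-K1, H2-D1, Psmb8, Psmb9 and Tap1) are treated apart where stated, because that region varies between mouse strains.

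Poly(A) RNA was sequenced from 11 mice aged 8 weeks, 1 library per mouse, from tissue of the nucleus accumbens shell in the ventral striatum. All animals came from a mixed strain background, CBA/C57BL6J/129svEmx. The series asks how reduced Rarb signalling changes transcription where a mutation causing Huntington disease is present, and it names the R6/1 line, which carries a fragment of the human huntingtin gene, and a Rarb allele. Its design lists 12 samples, of which 1 (R6/1 0/0 and Rarb+/+) failed quality control. Each library is labelled by an animal code (m115, m49, m47, m73, m101, m44, m61, m89, m83, m74 and m57) without a genotype. The libraries were therefore placed in no group, and every statement below is about the spread over libraries or about named libraries. With 1 library per mouse, that spread holds genotype, sex, dissection and library preparation together, and these cannot be told apart.

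Type I interferons bind the receptor Ifnar1/Ifnar2, and the kinases Jak1 and Tyk2 then activate transcription factors, among them Stat2, which acts with Irf9 in a complex that binds the interferon-stimulated response element (ISRE) in promoters. Interferon gamma acts through Ifngr1/Ifngr2 and on the gamma-activated site (GAS). The induced genes encode antiviral proteins, the sensors and factors that amplify the response, and the machinery that loads peptides on class I molecules. In healthy brain most of these genes have low levels, and microglia, vessel cells, astrocytes and neurons can all express them.

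The promoters of 4 of these genes are shown because they hold the ISRE word and belong to members whose order of libraries was among the nearest to that of Isg15. The word searched was GAAA, any 2 bases, and GAAA again, on both strands (TTTC, any 2 bases and TTTC on the other strand), in RefSeq windows (GRCm38.p6) from 250 bases before to 50 bases after each start. Capitals mark the word, and each run is written 5′ to 3′ on the strand of the gene. Isg15 encodes a ubiquitin-like protein that is joined to other proteins, and its promoter (chr4:156200819-156201068, minus strand) holds 3 overlapping words that begin 78, 72 and 66 bases before the start. Ifit3 (chr19:34583279-34583528, plus strand) and Ifit3b (chr19:34607707-34607956, plus strand) are neighbouring near-copies that encode tetratricopeptide proteins binding viral RNA. In Ifit3 the words begin 156 and 122 bases before the start, and in Ifit3b 188 and 154 bases before it. In Ifitm3, which encodes a membrane protein that blocks virus entry, the 2 words lie just past the start, from base 3 to base 29 (chr7:141010716-141010742, minus strand), and only that stretch is shown.
Isg15: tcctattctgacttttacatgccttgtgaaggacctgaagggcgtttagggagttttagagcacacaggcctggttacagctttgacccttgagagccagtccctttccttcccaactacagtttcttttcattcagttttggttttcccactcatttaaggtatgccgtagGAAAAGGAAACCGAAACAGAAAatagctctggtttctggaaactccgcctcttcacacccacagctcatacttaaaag
Ifit3: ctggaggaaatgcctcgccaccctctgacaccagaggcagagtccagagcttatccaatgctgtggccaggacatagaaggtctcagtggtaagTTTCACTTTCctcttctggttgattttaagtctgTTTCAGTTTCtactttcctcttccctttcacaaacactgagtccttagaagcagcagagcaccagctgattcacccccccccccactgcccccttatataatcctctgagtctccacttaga
Ifit3b: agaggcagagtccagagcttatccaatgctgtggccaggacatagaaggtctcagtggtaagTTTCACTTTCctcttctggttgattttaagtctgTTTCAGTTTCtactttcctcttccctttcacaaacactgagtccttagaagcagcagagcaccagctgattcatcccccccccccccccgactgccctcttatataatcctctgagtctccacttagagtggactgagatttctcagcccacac
Ifitm3: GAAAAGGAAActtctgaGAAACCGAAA

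The Ifit3 and Ifit3b runs share a stretch of 169 identical bases that includes both words. Of the 45 members, 36 had a window in the RefSeq table, some with more than 1, for 42 windows in all. The ISRE word was in 19 of the 42 windows (45.2%), which belong to 18 members, against 3.44% of all 32851 windows. A GAS word (TTCNNNGAA, the same on both strands) was found in 9 of the 42 (21.4%), against 8.3% of all windows. The longer form TTCCNGGAA, whose matches are all matches of the GAS word too, was found in 3 of the 42 (7.14%: Bst2, Gbp7 and Ifit2), against 1.15%. Among members with the ISRE word were B2m, Bst2, Ddx58, Eif2ak2, Ifih1, Ifit1, Irgm1, Rsad2 and Stat2. Irf7, Irf9, Oasl2, Xaf1, H2-K1 and H2-D1 had no match, which says only that these letters are not in those windows.

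Library totals ran from 24840981 counts (m61) to 48825783 (m49), with a median of 36252983. At these totals 3 counts, taken as the floor, equal 0.0619 to 0.133 CPM. The tissue label was checked against 12 markers of striatal projection neurons, all of which passed the filter. Their summed level ran from 2769 CPM in m73 to 6616 CPM, and m73 was the lowest library in it. Summed microglia markers (20 of 20 past the filter) came to 550 CPM in m73 and 541 to 897 CPM in the other 10 libraries, and summed endothelial and pericyte markers (20 of 20) to 540 CPM against 472 to 591 CPM. In bulk tissue, fewer cells of a type and less RNA per cell cannot be told apart.

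The genes were expressed at low levels, with a few exceptions. Per length, the highest members were B2m, the light chain of class I molecules, with a median of 69.0 RPKM (CPM per kilobase of exon), Ifi27, a mitochondrial protein linked to cell death, with 26.5 RPKM, and the class I heavy chain H2-D1 with 12.4 RPKM. Ifitm3 followed with 9.17 RPKM and Cmpk2, a mitochondrial nucleotide kinase, with 7.13 RPKM. The marker gene Isg15 had a median of 1.92 RPKM, and Ifit1 one of 0.461 RPKM. Mx1, Oas1a and Zbp1 did not pass the filter: Mx1, an antiviral GTPase, ran from 0 to 0.472 CPM, Oas1a, an RNA-activated antiviral enzyme, from 0 to 0.62 CPM, and Zbp1, a sensor of Z-form nucleic acid, from 0 to 0.52 CPM. Mx1 and Zbp1 were highest in m73, with 20 and 22 counts, and Oas1a in m101. These levels lie within a few multiples of the floor.

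Isg15 (chromosome 4, 156199424 to 156200818 in mm10, minus strand) set 1 library apart. Its level was 7.32 CPM in m73, 2.55 in m74, 2.12 in m49, 1.82 in m61, 1.65 in m115, 1.45 in m83, 1.31 in m47, 1.24 in m44, 1.137 in m101, 1.02 in m89 and 0.664 in m57. m73 stood 2.88-fold above the next library and 5.30-fold above the median of the other 10. The 310 counts in m73 give a 95% Wilson interval of 6.55 to 8.19 CPM, and the 104 counts in m74 one of 2.1 to 3.08 CPM, so the intervals do not overlap. They cover counting error only, since reads without molecular identifiers are not independent molecules. m73 was named for its Isg15 level in these same data, so that level carries no test.

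Ifit3 (chromosome 19, 34583531 to 34588731, plus strand) was highest in the same library by a small margin. Its level was 11 CPM in m73, 9.71 in m49, 7.48 in m101, 7.05 in m74, 6.11 in m115, 5.41 in m61, 4.85 in m44, 4.81 in m47, 4.26 in m83, 4.20 in m89 and 2.97 in m57. m73 was 1.1-fold above m49, whereas for Ifit3b (7.28 CPM in m73 and 2.25 to 4.72 CPM elsewhere) it was 1.54-fold above m49. Of the 50-base words of Ifit3 transcripts 51.2% also occur in another gene, and of those of Ifit3b 45.0%, so the split of reads between them is uncertain.

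**Figure D1:**
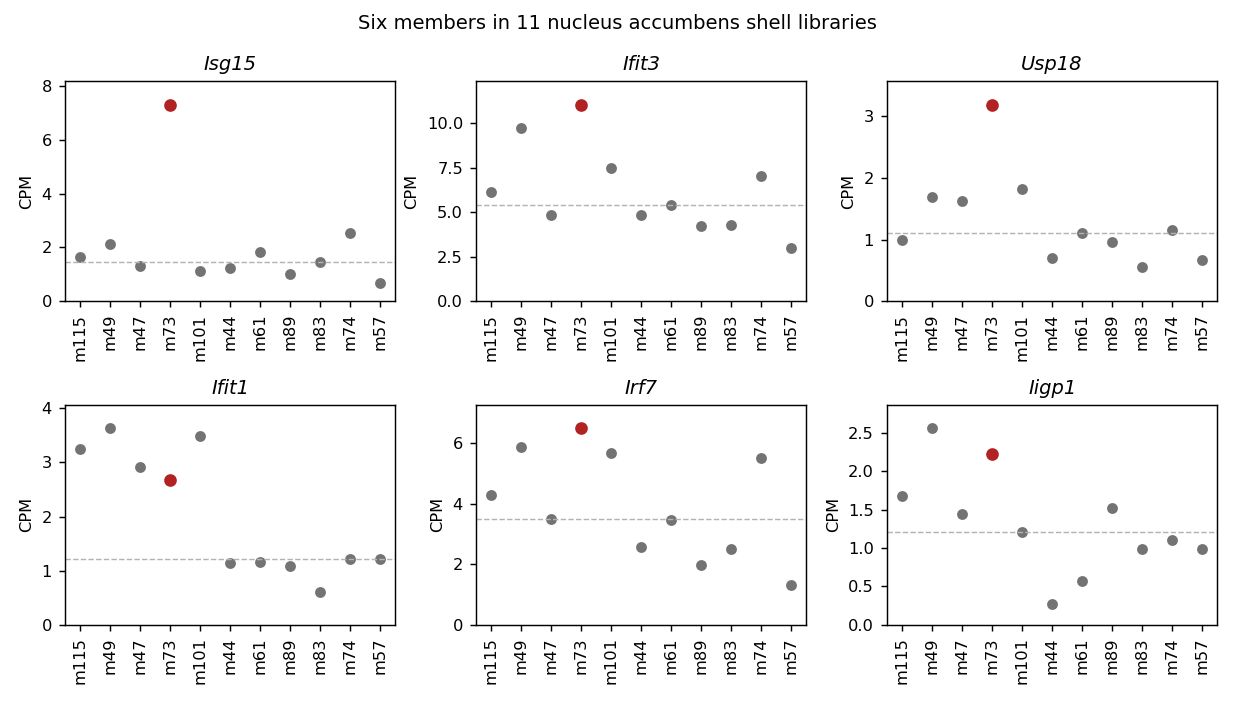
CPM (linear axis from 0) of Isg15, Ifit3, Usp18, Ifit1, Irf7 and Iigp1 in the 11 libraries, 1 point per library, with m73 in red and the median over libraries as a dashed line. For Isg15 the m73 point, at 7.32 CPM, stands away from the other 10, whereas for Ifit1 and Iigp1 it lies among the other high points.

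The 3 transcription factors all had their highest value in m73. Irf7, the factor that amplifies interferon production and is itself induced, was 6.50 CPM in m73, 5.88 in m49, 5.69 in m101, 5.51 in m74, 4.29 in m115, 3.50 in m47, 3.46 in m61, 2.56 in m44, 2.50 in m83, 1.96 in m89 and 1.33 in m57. The m73 value exceeded that of m49 by 1.11-fold, so for Irf7 m73 was the top of a continuous range. Irf9, the DNA-binding subunit of the ISRE complex, ran from 7.40 CPM in m61 over a median of 17.6 to 25.1 in m73. Stat2, its partner, ran from 11.3 CPM in m61 over a median of 33.9 to 41.5 in m73. For Stat2 the low library m61 lay farther from its neighbour (26.8 CPM in m57) than m73 did from its own (38.2 CPM in m101).

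The 3 sensors past the filter were also highest in m73. Ddx58 (RIG-I, a receptor of viral RNA) ran from 2.98 CPM in m44 over a median of 4.24 to 7.82 in m73, which was 1.24-fold above m49. Ifih1 (MDA5, a receptor of long double-stranded RNA) ran from 1.06 CPM in m61 over 2.84 to 4.61 in m73, 1.06-fold above m115. Dhx58 (LGP2, a regulator of both) ran from 0.751 CPM in m57 over 1.47 to 2.53 in m73, 1.32-fold above m83. In these 3 genes the next library was a different one each time.

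Among the 25 effectors past the filter, 10 were highest in m73 (9.28% of all genes were). Usp18, the protease that removes Isg15 from proteins and restrains the receptor, was 3.19 CPM in m73, 1.83 in m101, 1.69 in m49, 1.63 in m47, 1.15 in m74, 1.11 in m61, 0.997 in m115, 0.968 in m89, 0.693 in m44, 0.664 in m57 and 0.549 in m83. m73 was 1.75-fold above the next library for Usp18, the widest such margin among the members after that of Isg15. Samd9l, an antiviral regulator of translation, was 19.9 CPM in m73 and 5.33 to 13.7 CPM in the others. Oasl2, an oligoadenylate synthetase-like protein with ubiquitin-like domains, was 7.91 CPM in m73 and 1.60 to 6.78 CPM in the others.

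Eif2ak2, the RNA-activated kinase PKR, was 11.6 CPM in m73 and 4.04 to 9.07 CPM in the others. Rsad2 (viperin) was 2.01 CPM in m73, and 1.89 CPM in the next library m83. The remaining 15 effectors had their highest value elsewhere. Ifit1 was 3.63 CPM in m49, 3.48 in m101, 3.24 in m115, 2.91 in m47, 2.67 in m73, 1.22 in m74, 1.21 in m57, 1.15 in m44, 1.15 in m61, 1.08 in m89 and 0.614 in m83. The 5 higher libraries of Ifit1 (m115, m49, m47, m73 and m101) and the 6 lower ones were separated by a gap. It took 47.9% of the range in CPM and so missed the 50% used here to call separate clusters. No member met that rule, which also asks for at least 2 libraries on each side and a log2 range of at least 1, and which 0.436% of all genes met.

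Ifitm3, shown above for its ISRE words, was not high in m73: it ran from 2.68 CPM in m89 over a median of 6.22 to 9.06 in m74, with 6.17 in m73. Ifit2, next to Ifit3 on chromosome 19, ran from 4.39 CPM in m83 to 10.4 in m47, with 8.36 in m73. Lgals3bp, a secreted glycoprotein, was 33.0 CPM in m49 and at most 22.1 CPM in the others. Cmpk2, which lies beside Rsad2 on chromosome 12, stayed within 23.6 to 33.3 CPM. Uba7, the enzyme that activates Isg15 for transfer, ran from 0.355 CPM in m61 over 2.41 to 3.40 in m83. Sp100, a nuclear body protein, was highest in m115 at 4.46 CPM and lowest in m57 at 1.27.

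The GTPases act on the membranes around intracellular pathogens. Gbp3 was 7.75 CPM in m73 and 7.38 in m101, with 2.62 to 5.41 CPM in the other libraries. Gbp7 ran from 1.11 CPM in m61 over 1.96 to 4.77 in m73, and Irgm1 from 4.19 CPM in m83 over 7.45 to 12.9 in m73. Igtp and Iigp1 were highest elsewhere. Igtp reached 5.29 CPM in m74 and was 2.36 in m73, below its median of 2.68. Iigp1 was highest in m49 at 2.56 CPM, and 0.271 CPM in m44 was its lowest value.

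**Figure D2:**
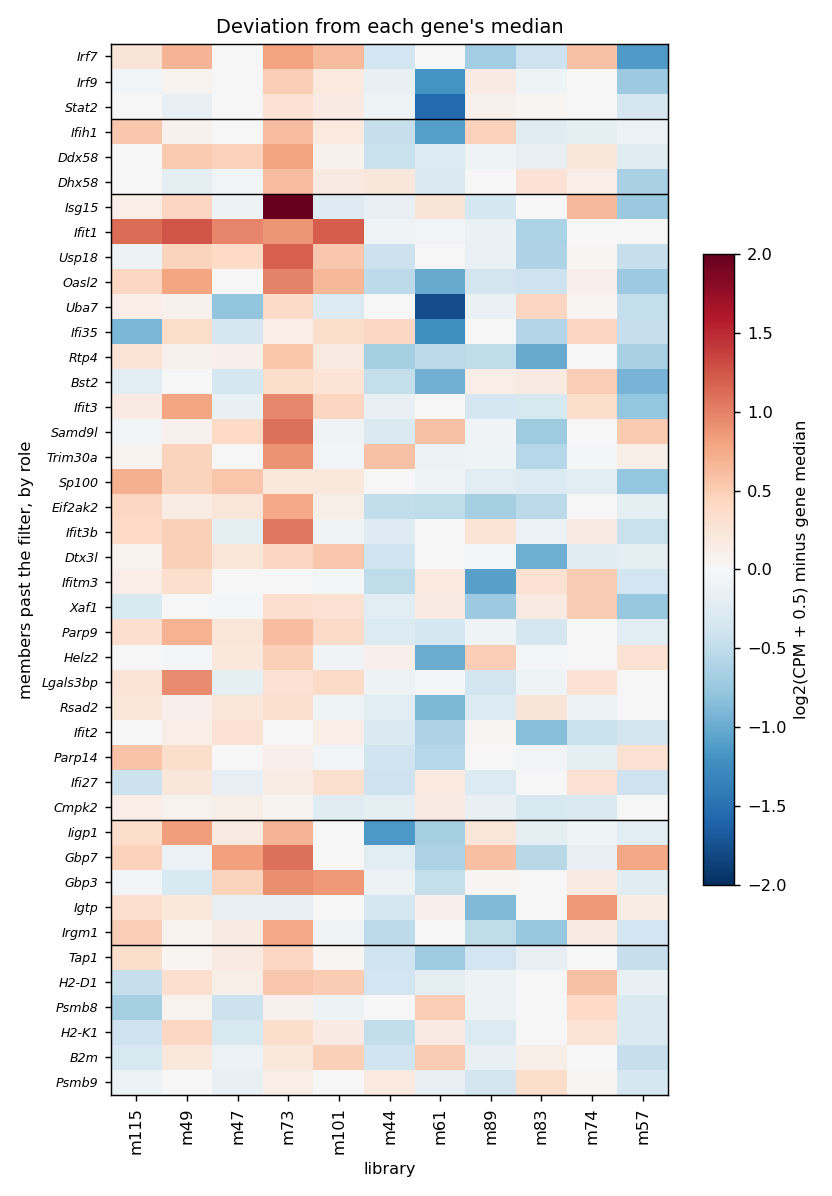
Deviation of log2(CPM + 0.5) of each of the 42 members past the filter from its own median over the 11 libraries (rows by role and then by spread, with lines between roles; columns are libraries; red above and blue below the median). The m73 column is above the median in most rows of every role, and the m57 and m44 columns are below it in most rows.

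Across the members, m73 was the highest library for 20 of 42 (9.28% of all genes were highest in m73), or for 19 of 41 when Isg15 is left out. It was among the 3 highest libraries for 33 of 42 (27.7% of all genes) and the lowest for 0 of 42 (4.89%). m73 reached at least 1.5-fold above the median of the other libraries for 20 of 42 (8.35% of all genes). The median member was 1.46-fold above that median in m73, and 1.69-fold without the 5 H2 region members, against 1.01-fold for all genes. The lowest library was m61 for 14 members (25.5% of all genes), m83 for 9 (8.81%) and m57 for 8 (7.06%). The median log2 deviation of the members from their own medians was 0.48 in m73, 0.21 in m49, 0.17 in m101, 0.13 in m115, 0.03 in m74, 0.00 in m47, -0.13 in m89, -0.14 in m83, -0.17 in m61, -0.27 in m44 and -0.34 in m57. m73 had the highest value and m57 the lowest. The median over all genes stayed within 0.01 of 0 in each library, which the scaling of libraries and the centring of each gene largely fix beforehand. The libraries below 0 (m89, m83, m61, m44 and m57) are those of higher projection neuron markers, given under Other observations. Their library codes run from NSZR9 (m57) to NSZR14 (m83), and those of the other libraries from NSZR1 (m115) to NSZR7 (m101). What the codes stand for is not given, and the cause of this split was not tested.

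Spread was measured as edgeR's biological coefficient of variation over the libraries, the variation of a gene beyond counting noise. The median spread of the 42 members was 0.327, against 0.201 for all genes, and 40 of the 42 lay above the median of all genes (50% of all genes by definition). The exceptions were Cmpk2 (0.124) and the immunoproteasome subunit Psmb9 (0.162). All genes past the filter, whatever their level, made up that comparison, and no genes of like level were set beside the members. Whether the low levels of most members play a part in their spread was not tested. A spread of at least 0.5 was reached by 4 of 42, Isg15 (0.661), Ifit1 (0.567), Iigp1 (0.525) and Usp18 (0.503), a share close to the 6.8% of all genes that did so. Just below were Oasl2 (0.498) and Uba7 (0.485). At a spread of at least 0.4 the count was 10 of 42, against 12.5% of all genes.

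Without m73 the spread of Isg15 fell to 0.348 and that of Usp18 to 0.374. The count at 0.5 or more became 2 of 42 (Ifit1 with 0.590 and Iigp1 with 0.519), against 6.85% of all genes. The median spread of the members without m73 was 0.285, against 0.204 for all genes. Irf7 (0.470 with and 0.457 without m73) and Oasl2 (0.498 and 0.459) changed little. Other libraries set the spread of some members. Without m61 the spread of Stat2 was 0.116 in place of 0.304, that of Helz2 0.139 in place of 0.267, that of Rsad2 0.136 in place of 0.254 and that of Uba7 0.285 in place of 0.485. Without m49 that of Lgals3bp was 0.171 in place of 0.261, and without m83 that of Psmb9 was 0.1004 in place of 0.162. Leaving out m61 also lowered the median spread of all genes, from 0.201 to 0.182. The share of all genes at 0.5 or more was then 5.44% in place of 6.8%. m61 had the smallest total, the highest mitochondrial share of counts (7.21%) and the lowest level of long relative to short genes (-0.64 in log2).

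**Figure D3:**
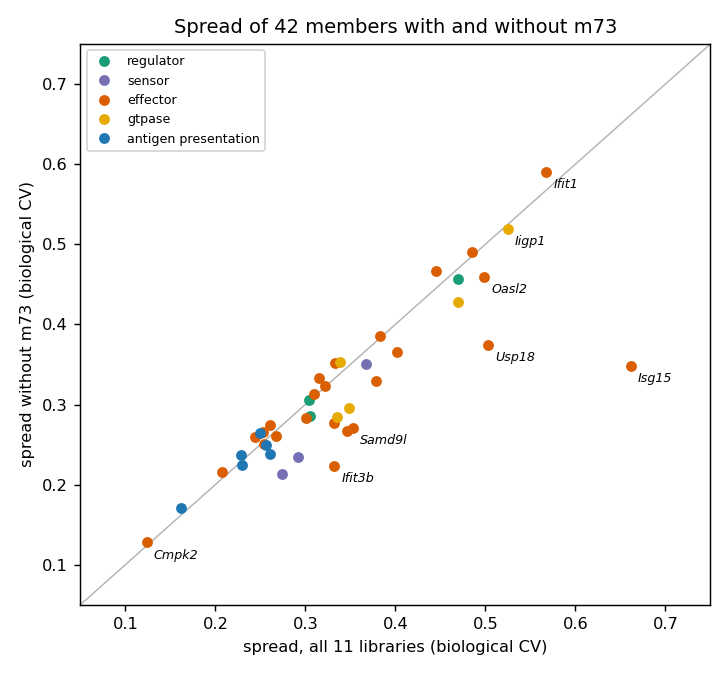
Spread (biological coefficient of variation) of the 42 members over all 11 libraries (horizontal axis) and without m73 (vertical axis), 1 point per gene, coloured by role, with the line of equal values. Isg15 (0.661 and 0.348) and Usp18 (0.503 and 0.374) lie below the line, whereas Ifit1 (0.567 and 0.590) and Iigp1 (0.525 and 0.519) lie near it.

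The order of the libraries by Isg15 was compared with that of every other gene by Spearman's rho. With 100000 permutations and Benjamini-Hochberg adjustment over 15372 genes, 0 of 41 members and 0% of all genes passed an adjusted p of 0.05, by rho or by Pearson's r on log2(CPM + 0.5). The smallest adjusted p of a member was 0.97 by rho. In simulated data of the same size, genes made to follow Isg15 did not pass the adjustment either. The smallest p of 100000 permutations, 1e-05, is also too large for a lone gene to pass over 15372 genes. This count therefore says little. Without adjustment, 7 of 41 members had a positive rho with p under 0.05 (2.04% of all genes) and 0 a negative one (1.35%). The sign of rho was positive for 37 of 41 members (50.9% of all genes), with a median of 0.40 against 0.01. It was below 0 for Ifit2, Gbp7 and Helz2, and rho was 0 for Parp14.

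These 7 members came from several roles. Ifit3 had a rho of 0.745 and an r of 0.805, which was 0.587 without the 2 libraries farthest from the Isg15 median, m73 and m57. Irf7 had a rho of 0.727 and an r of 0.718, or 0.612 without those 2 libraries. Ifitm3 had a rho of 0.736 and an r of 0.417, which was 0.784 without them. Ifit3b had a rho of 0.682 and an r of 0.853, which dropped to 0.443 without them. The others were Xaf1, an antagonist of an apoptosis inhibitor (rho 0.691, r 0.628), Irgm1 (0.682 and 0.719) and Psmb8 (0.627 and 0.378). The unadjusted permutation p of rho ran from 0.012 to 0.044 over the 7 members, and each adjusted p was 0.97.

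By r, 12 of 41 members were positive with an unadjusted p under 0.05, against 0.638% of all genes, and 0 were negative (0.82%). All 41 members had an r above 0 (56.6% of all genes). Usp18 was among them with an r of 0.719, but its r was 0.131 without m73 and m57. Dhx58 likewise went from 0.640 to -0.32. For these genes the relation rests on those 2 libraries. Without m73, rho passed an unadjusted p of 0.05 for 3 of 41 members (Ifit3, Ifitm3 and Igtp), against 4.35% of all genes, and for 0 in the negative direction (4.7%). It was above 0 for 32 of 41 (51.6%), with a median of 0.25, and turned from above to below 0 for 5 members (Irf9, Stat2, Ifih1, Trim30a and Gbp3).

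**Figure D4:**
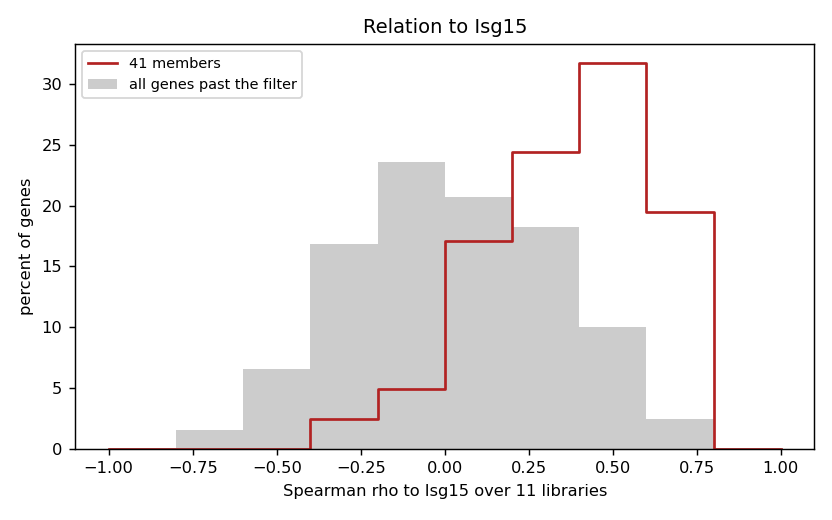
Percent of genes in bins of Spearman's rho to Isg15 over 11 libraries, as grey bars for all genes past the filter and a red line for the 41 members other than Isg15. The members lie to the right, with a median of 0.40 against 0.01, and no member lies above 0.8 (0.104% of all genes do).

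Ifit3, the other marker gene, was followed more closely. Taken as the reference, it had a positive rho with unadjusted p under 0.05 for 17 of 41 members (2.78% of all genes) and a negative one for 0 (2.43%), with a median rho of 0.53, and rho was above 0 for 40 of 41 (50.7%). Again 0 members passed the adjustment, which a lone gene could not do here either. Irf7 was the nearest, with a rho of 0.973 and an adjusted p of 0.15, the smallest of any gene. Its unadjusted permutation p by rho, 1e-05, was the smallest that the permutations could give. The adjusted p of Irf7 was thus set by that limit and is no evidence against the relation. Usp18 (0.836), Lgals3bp (0.809), Oasl2 (0.791), Parp9, a mono-ADP-ribosyltransferase family protein (0.709), and Ifit1 (0.682) were among the 17.

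In an alternative chosen after seeing the data, m73 was left out with Ifit3 as the reference. The median rho was then 0.47, and 6 members (Ifit1, Irf7, Isg15, Lgals3bp, Oasl2 and Usp18) had a positive unadjusted p under 0.05 (3.72% of all genes). Helz2, a helicase coactivator, had a negative one, with a rho of -0.71 (3.9% of all genes). The sign of rho was positive for 36 of 41 members (50.1%). Irf7 kept a rho of 0.964. The relation between Ifit3 and Irf7 was thus as strong in the other 10 libraries as in all 11.

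Outside the list, the genes nearest to Isg15 by rho over the 11 libraries included Ormdl3 (0.945), Gng4, Toe1 and Gm20635 (0.845 each), Flot2 (0.836), and Pomgnt1 and Cacfd1 (0.827 each). Their adjusted p ran from 0.77 for Ormdl3 to 0.97. Their spread ran from 0.0758 (Cacfd1) to 0.310 (Gm20635), and that of Isg15 was 0.661, or 0.348 without m73. Ormdl3 ran from 63.2 to 87.1 CPM with a spread of 0.0948. No member reached a rho of 0.8, but only 0.104% of all genes did, so with 41 members this says little about them.

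The antigen presentation members had a median spread of 0.240, between that of all genes and that of all members. Of the 6, 1 was highest in m73 (9.28% of all genes were). For all 6, m73 was among the 3 highest libraries (27.7% of all genes). H2-K1 (chromosome 17, 33996017 to 34000347, minus strand), a class I heavy chain, was 21.5 CPM in m49, 20.6 in m73, 19.6 in m74, 18.1 in m101, 18 in m61, 16.1 in m83, 13.3 in m89, 13.1 in m57, 12.8 in m47, 11.9 in m115 and 11.2 in m44. H2-D1 (chromosome 17, 35262730 to 35267499, plus strand), the other classical heavy chain, was 48.3 CPM in m74, 46.4 in m73, 45.8 in m101, 40.6 in m49, 34.8 in m47, 31.9 in m83, 29.8 in m89, 28.8 in m57, 28.3 in m61, 24.5 in m44 and 23.2 in m115. m49, m73 and m74 were the 3 highest libraries for H2-K1, and m74, m73 and m101 for H2-D1. Reads of both can be shared with other class I genes, since 9.63% and 12.8% of their 50-base words occur elsewhere.

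B2m (chromosome 2, 122147686 to 122153083, plus strand), which lies outside the H2 region, was 84.3 CPM in m61, 82.8 in m101, 68.7 in m73, 68.5 in m49, 64.1 in m83, 59.3 in m74, 54.4 in m47, 53.3 in m89, 47.3 in m115, 45.0 in m44 and 42.9 in m57. The libraries m61 and m101 were highest and m73 was the third. Its spread (0.229) was close to those of H2-K1 (0.230) and H2-D1 (0.257). Tap1, a subunit of the peptide transporter, was the only antigen presentation member with its highest value in m73, at 4.96 CPM against 4.74 in m115. Psmb8, an immunoproteasome subunit, was highest in m61 (4.39 CPM), as B2m was, and Psmb9 in m83 (1.89 CPM). Of all genes, 17.9% were highest in m61 and 7.69% in m83. Tap1 and Psmb9 overlap on opposite strands and a gene overlaps Psmb8 likewise, and since the strand setting of the counting is not known here their reads may be mixed.

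**Figure D5:**
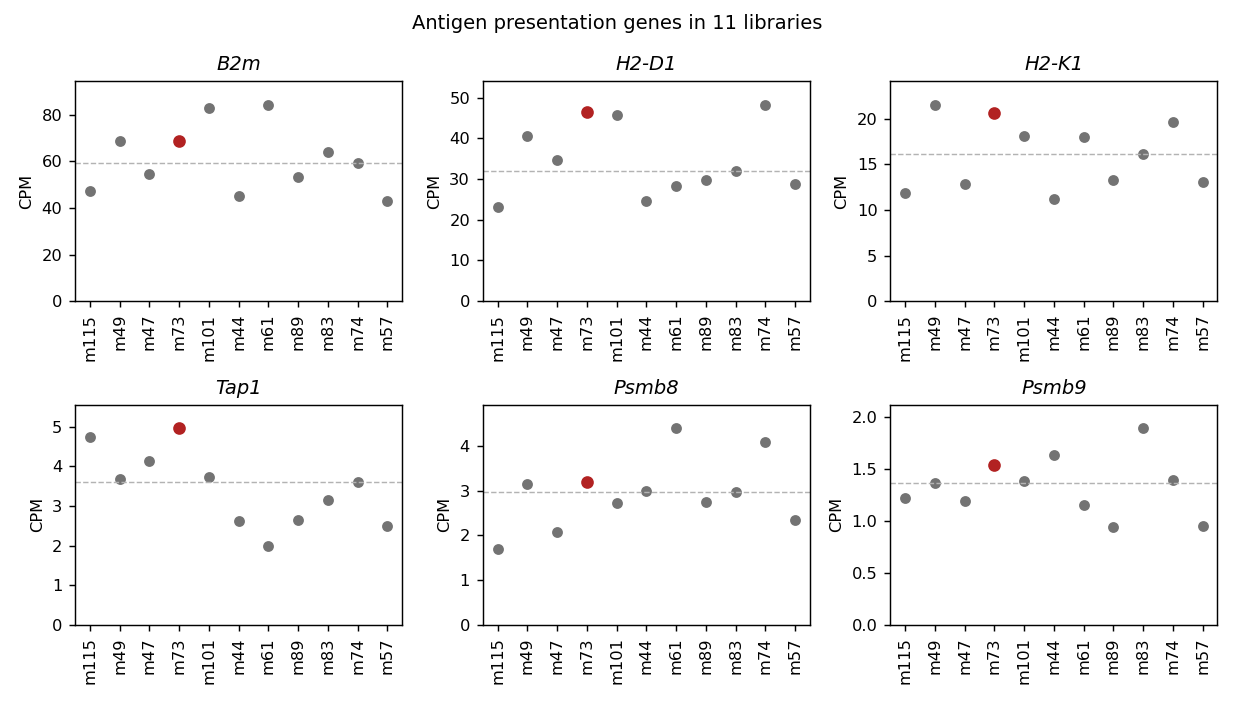
CPM (linear axis from 0) of the 6 antigen presentation members in each library, 1 point per library, with m73 in red and the median as a dashed line. H2-K1, H2-D1 and B2m have highest-to-lowest ratios of 1.91, 2.09 and 1.97, and their highest libraries (m49, m74 and m61) differ.

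The H2 region (chromosome 17, 33915899 to 37483552) held 328 annotated genes, 109 of them past the filter. Their median spread was 0.219, and 7 of 109 (6.42%) had a spread of at least 0.5, against 0 of the 5 members there and the 6.8% of all genes given above. The 7 were C4a, Egfl8, Rnf39, H2-DMb2, H2-Q7, H2-T10 and the predicted gene Gm18733. The non-classical class I gene H2-T10 was 5.84 CPM in m49, 5.65 in m101, 5.36 in m74, 4.56 in m83, 4.21 in m61, 4.12 in m89, 3.41 in m44, 1.42 in m73, 1.32 in m115, 1.22 in m47 and 0.953 in m57. Its 4 low libraries (m115, m47, m73 and m57) were 0.953 to 1.42 CPM and the other 7 were 3.41 to 5.84 CPM. For H2-K1 those same 4 libraries were 11.9, 12.8, 20.6 and 13.1 CPM, so m73 was low in H2-T10 and high in H2-K1. Whether H2 alleles differ between the animals was not tested.

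The ligands themselves were hardly detected. Of 11 interferon and cytokine genes listed, 8 had a count of 0 in every library, Ifnb1 and Ifng among them, which limits each to below 0.0619 to 0.133 CPM per library, counting error only. None of the 11 passed the filter, and the highest value was 0.211 CPM, of Tnf. The receptors were present and even. Ifnar1 ran from 42.5 to 58.5 CPM with a spread of 0.0820, Ifnar2 from 13 to 20.7 CPM, Ifngr1 from 14.3 to 24.7 CPM and Ifngr2 from 39.8 to 68.0 CPM.

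Of the 14 receptor and signalling genes past the filter, 0 had a spread of at least 0.5 (6.8% of all genes). Highest in m73 were 3 of the 14 (9.28% of all genes). The summed level of all 16 listed was 538.3 CPM in m73 and 417.5 to 536.9 CPM in the others. Jak1, the most abundant of those named here, ran from 94.5 CPM in m83 to 175 in m57, with 141 in m73. Tyk2 ran from 8.29 CPM in m61 to 28.0 in m73, and 26.3 CPM in m89 was its next value. Of 16 genes of nucleic acid sensing and upstream signalling past the filter, 0 were highest in m73 (9.28% of all genes). By rho to Isg15, 0 had an unadjusted p under 0.05 (2.04% of all genes positive and 1.35% negative). Irf3, the factor that starts interferon production, was 20.0 CPM in m73 with a median of 19.1, and Tmem173 (STING) was 2.34 CPM in m73 with a median of 3.60.

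Of 34 further interferon-induced genes past the filter, 9 were highest in m73 (9.28% of all genes). A positive unadjusted p under 0.05 by rho was found for 2, Trim12c and Cd274 (2.04% of all genes). A spread of at least 0.5 was reached by 5 (6.8% of all genes). The 5 were Trim12a (1.41), Ddx60 (1.07), Ifi44 (0.741), Mx2 (0.552) and Trim21 (0.503). Ifi44 was 2.74 CPM in m73 and 0.222 to 1.69 CPM in the others. Ddx60, a helicase that aids RNA sensing, was 3.05 CPM in m73 and 2.24 CPM in m115, with 0 to 1.19 CPM elsewhere. Trim12a went the other way, with 0.0945 CPM in m73 and up to 2.44 CPM in m47, so the direction was not shared by all such genes.

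Among 20 further class I pathway genes past the filter, 1 was highest in m73 (9.28% of all genes). It was the class I transactivator Nlrc5, at 2.24 CPM against 0.266 to 1.25 CPM in the others. Tap2 and Psme1 had a positive unadjusted p under 0.05 by rho to Isg15 (2.04% of all genes). Of the class II genes, 3 passed the filter and 0 were highest in m73, too few to set against that share. The invariant chain Cd74 was 1.70 CPM in m73, with a median of 1.65.

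m73 was not the highest library for the summed markers of any of the 10 cell type lists. Counted from the highest, it was 10th of 11 for the summed microglia markers and second for those of vessels, and for summed lymphocyte and neutrophil markers it was 5.48 CPM against 5.14 to 30.9 CPM. Nkg7 was at 0 in every library, and Cd79a, Gzmb and S100a9 were at 0 in m73. Ptprc, the pan-leukocyte CD45, was highest in m73 at 3.28 CPM, with 3.0 in m57. Their part in the level of the members was not tested beyond the relations that follow.

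Isg15, B2m and H2-D1 were set against the library total, the mitochondrial share of counts, the level of long relative to short genes, Rarb, and the mean log2 deviation of the microglia, vessel, astrocyte, oligodendrocyte and projection neuron markers. Of these 27 relations 24 entered the adjustment. Those with the projection neuron markers were left out of it, because the marker values fell into separate clusters. Of the 24, 0 had an adjusted p under 0.05 by r or rho (100000 permutations, two-sided). The smallest adjusted p values over all 11 libraries were those of H2-D1 and Isg15 with Rarb. H2-D1 had an r of -0.80 and a rho of -0.79 with Rarb (adjusted p 0.069 and 0.079), and r was -0.69 without m74 and m44. Without m73 they were -0.79 and -0.72 (adjusted p 0.11 and 0.14). Isg15 had an r of -0.61 and a rho of -0.78 with Rarb (adjusted p 0.18 and 0.079), and without m73 an r of -0.76 and a rho of -0.72 (adjusted p 0.11 and 0.14). B2m had an r of 0.688 and a rho of 0.691 with the mitochondrial share (adjusted p 0.14 and 0.13). With the level of long relative to short genes B2m had an r of -0.66 and a rho of -0.68 (adjusted p 0.18 and 0.13), r was -0.43 without m61 and m57, and without m73 r was -0.74 and rho -0.82 (adjusted p 0.11 and 0.14). With Rarb B2m had an r of -0.63 and a rho of -0.71 (adjusted p 0.18 and 0.13). Isg15 had an r of -0.15 and a rho of 0.227 with the microglia markers (adjusted p 0.95 and 0.76). None of these relations could be computed within batches, since no batch is labelled.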

How the data were processed

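The authors deposited whole-number read counts for each gene without normalization. The tools named are HTSeq 0.6.1, Bowtie2 2.1.0, TopHat2 2.0.14 and bcl2fastq 2.17.1.14, with the mm10 genome, per the submitters' processing notes. How strand was set and which annotation release was counted is not given in the sources used here. Overlapping and near-identical genes are therefore uncertain. Per the labels' protocols, libraries came from 200 ng of RNA from punches of 300 µm sections, with a stranded mRNA kit and 12 PCR cycles.

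Identifiers were matched to GENCODE M21 (52403 of 52550), the source of names, coordinates and exon lengths. CPM used effective library sizes with TMM factors (edgeR 4.0.16, R 4.3.3). The dispersion behind the spread was estimated gene by gene with no group term, for genes with a median count of 10 or more that reached 1 CPM in 3 or more libraries. Relations used 100000 permutations, two-sided, so the smallest possible p is 1e-05, with Benjamini-Hochberg adjustment over all genes tested (Python 3.11.15, numpy 2.4.6, pandas 2.3.3, scipy 1.17.1, matplotlib 3.10.9). DESeq2 1.42.0 gave alternative size factors. No 2 libraries agreed within sampling noise (chi-square over genes). Promoter windows came from RefSeq.

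The steps were tested on simulated data. Of 200 genes made to follow Isg15 among 15372 tested, 97% reached an unadjusted p under 0.05 by rho and 0 passed adjustment. Of 200 genes given a high spread among 15373, 98% reached 0.5.

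Members, gene lists, alternatives and the naming rule were chosen with earlier results of these data known. The rule names the markers, the members of largest and smallest spread, the H2 region members, B2m, the members of highest rho, the nearest other genes and the leading genes of each list. Other members are named by role. Trim12c, Cd274, Tap2, Psme1, Irf3, Tmem173, Ptprc, H2-T10 and the other H2 region genes were named after their values were seen. Some genes the rule names are not reported here.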

Additional observations from a re-analysis of the deposited data

How the results depend on the processing

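The number of members with a spread of at least 0.5 was 4 with all libraries and stayed at 4 with DESeq2 size factors and was 6 with unscaled library totals. It was 7 of 45 without the filter on low counts, where 37.1% of all genes reached 0.5. At a spread of at least 0.4 it was 10 (12.5% of all genes). Leaving out each library in turn gave 2 (without m73) to 6. The members' median spread, 0.327, ran from 0.285 (without m73) to 0.334 when a library was left out and was 0.336 with unscaled library totals. Without the filter on low counts it was 0.332, below the 0.359 of all genes. The members' median was thus above that of all genes only with that filter. Between these 2 settings the members' median hardly moved, whereas that of all genes rose from 0.201, with genes of very low counts let in. The number of members with an adjusted p under 0.05 by relation to Isg15 was 0 under every alternative run, which says little given the limit that the permutations set on p. The number positive without adjustment, 7 by rho, was 12 by Pearson's r with a pseudocount of 0.5 or 1 CPM, 17 with Ifit3 as the reference, and 3 (without m73) to 11 (without m101) when a library was left out. It was 4 without m89, m74 or m57. Without m73, rho to Isg15 turned from above to below 0 for 5 of 41 members, and r did so for 11 without m73 and m57. None of these 5 had passed an unadjusted p of 0.05 by rho. The cause of these shifts was not tested. No paired analysis was possible because the labels give no groups. Depth limits Mx1, Oas1a and Zbp1 most, since in m73 they had 20, 14 and 22 counts.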

Other observations

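The mean log2 deviation of the striatal projection neuron markers fell into separate clusters of libraries, which the labels put in no group. It was 0.81 in m44, 0.64 in m57, 0.62 in m89, 0.61 in m83, 0.58 in m61, -0.18 in m115, -0.21 in m101, -0.25 in both m49 and m47, -0.34 in m73 and -0.46 in m74. For Ifit1 the values of these libraries, in the same order, were 1.15, 1.21, 1.08, 0.614, 1.15, 3.24, 3.48, 3.63, 2.91, 2.67 and 1.22 CPM. Relations to the mean of these markers were computed across the clusters but left out of the adjustment, and they are not reported here. Plac8, an interferon-induced gene below the filter, was 0.85 CPM in m73 and at most 0.181 CPM elsewhere, and the chemokine Cxcl10 was 0.52 CPM in m73, 0.404 in m57 and 0 in 6 libraries.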
